A study of Saccharomyces cerevisiae with 48 samples.

Results

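The sites described here are the peaks of biotinylated trimethylpsoralen (bTMP) sequencing in top2-1 budding yeast held at 32 °C that also had a peak in the rrm3top2-1 list and had none in the WT and rrm3 lists of the same temperature. A site counted as shared when it had at least 1 bp in common with a peak of the other list, and as absent when it had none. Of the 4161 nuclear peaks of the top2-1 list, 76.7% met the rrm3top2-1 list, 68.1% the rrm3 list and 74.8% the WT list; the rule took 280, 6.73%, and the 20 bTMP lists of the series hold 74943 peaks in all. The members were thus chosen by presence and absence in 4 peak lists, so their presence or absence in those 4 lists is not a result. The widths and scores below come from the same lists. So do the sets of peaks found in all 4 of them or in only 1, and the rule with the strains exchanged. Comparisons with these are therefore not independent of how the members were chosen. The working name for the set was sites seen only with top2-1. The other lists go against that name, because 279 of the 280 sites had a peak in at least 1 of 14 lists from strains without top2-1 that the rule did not use. They are therefore called by their rule, as member sites.

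Psoralen slips between the bases of DNA and does so more readily where the helix is under-wound, and a biotin tag lets the bound fragments be recovered and sequenced, so bTMP peaks mark DNA that took up more psoralen. A transcribing RNA polymerase or an advancing replication fork over-winds the DNA ahead of it, and transcription leaves under-wound DNA behind. Topoisomerase I, encoded by TOP1, relaxes such stress by cutting 1 strand. Topoisomerase II, encoded by TOP2, cuts both strands, and also separates linked sister chromosomes. Sen1 is a helicase that terminates non-coding transcription and acts where replication meets transcription, and Rrm3 is a helicase that helps forks pass protein barriers on DNA. Rpb1 is the largest subunit of RNA polymerase II.

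The series, on Sen1, Rrm3 and DNA topology at the end of replication, compared bTMP maps and Rpb1 chromatin immunoprecipitation between yeast strains, with 1 pulled-down library per group. At 32 °C the strains were top2-1, rrm3top2-1, sen1top2-1 and sen1rrm3top2-1, against sen1, rrm3, sen1rrm3 and WT, all grown for 1.5 h in YPD at 25 °C and then for 1 h at 32 °C. Log-phase bTMP maps came from top1, sen1top1, rrm3top1, sen1rrm3top1, sen1, rrm3, sen1rrm3 and WT cells after 2.5 h in YPD, and S-phase bTMP and Rpb1 maps from sen1, rrm3, sen1rrm3 and WT cells taken at 23 °C, 45 to 50 min after alpha factor was removed. All cultures had first been grown in YPG; top2-1 is a temperature-sensitive allele, and the labels do not say what kind of allele the others are. Since each group is 1 library, no difference between strains has a replicate check, and no p-value is given. The exact (Clopper-Pearson) 95% binomial intervals printed with some shares cover counting error only, and the read depth behind the lists is unknown.

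The lists fall into 2 kinds by spacing. In 14 of the 20 bTMP lists neighbouring peaks come as close as 156 to 166 bp, and peaks cover 6.997 to 11.7% of the nuclear genome. In the 4 S-phase lists and the sen1 and sen1rrm3 lists at 32 °C no 2 peaks lie closer than 591 bp, and peaks cover 17.5 to 25.9%. A site is therefore more easily touched by a peak of the widely spaced lists, and shares in the 2 kinds are given apart. The WT list in S phase, with 2678 peaks, had the lowest cover of the widely spaced lists.

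Member sites ran from 160 to 616 bp, with a median of 213 bp, against 257 bp over all top2-1 peaks and 289 bp over the 2312 top2-1 peaks that were in all 4 lists of the rule. Ranked by the authors' own score for each peak, their median percentile within the top2-1 list was 42.2, against 59.4 for the peaks in all 4 lists. They were thus narrower and lower-scoring peaks than those common to the 4 lists. The 439 top2-1 peaks in none of the other 3 lists had a median width of 212 bp and a median percentile of 28.8. Width and score come from a list that the rule used, and the part of the rule in these differences was not tested. At the edge of the rule, the member nearest to a WT or rrm3 peak lay 150 bp away, in RPH1, and the farthest 8583 bp away, in DCK1. The median distance was 755 bp, and 100 of 280 members lay within 500 bp of such a peak. The member with least in common with the rrm3top2-1 list shared 49 bp with it, and the median was 186 bp, or 96.3% of the site. Just outside the rule, 1 top2-1 peak shared as little as 38 bp with a WT or rrm3 peak and was left out. A further 601 peaks of both the top2-1 and rrm3top2-1 lists missed the set by touching only 1 of the WT and rrm3 lists.

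A few sites show how the members look in all 24 lists. The 5 members found in all 4 top2-1 lists and in no log-phase list of a strain with intact TOP1 lay in or beside NMA111, FRS1, FKH2, POL2 and SNR84; they are 1.79% of members, against 0.673% of all top2-1 peaks with that pattern, and the first 3 are drawn. NMA111 encodes a nuclear serine protease, FRS1 a subunit of phenylalanyl-tRNA synthetase, and FKH2 a forkhead transcription factor of cell-cycle genes. The NMA111 site, chrXIV:394684-394852, lay 83 bp inside the start of the gene, and the FRS1 site, chrXII:261478-261704, lay 34.2% of the way along it. Coordinates are those of the deposited lists, for which no source used here names a genome build. The FKH2 site, chrXIV:497307-497550, lay 33.2% of the way along the gene. These 3 sites had peaks in 3, 3 and 4 of the 4 top1 log-phase lists, in the order named. They also had peaks in 4, 3 and 4 of the S-phase lists, and in 2, 1 and 2 of the sen1 and sen1rrm3 lists at 32 °C. The POL2 site, chrXIV:151192-151359, in the gene of the DNA polymerase epsilon catalytic subunit, was in all 4 top1 log-phase lists too. The site at SNR84, a small nucleolar RNA gene, at chrIV:1492403-1492720, was in 2 of them. No member was in all 4 top2-1 lists and in none of the 14 lists without top2-1, and the count was also 0 over all 4161 top2-1 peaks.

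**Figure D1:**
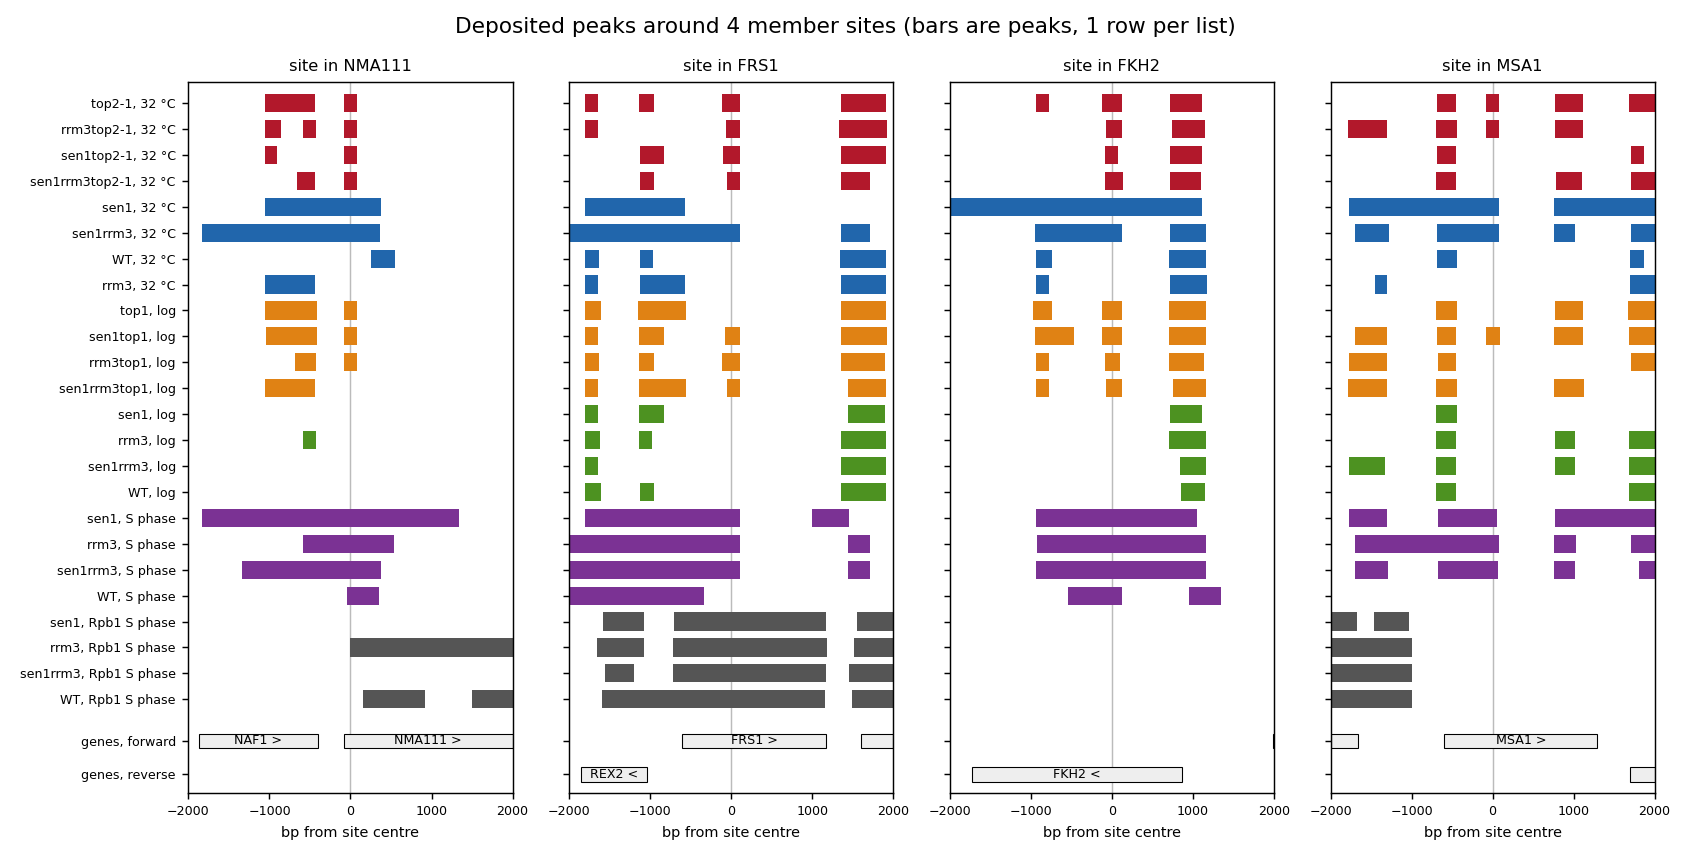
Deposited peaks within 2000 bp of the centres of 4 member sites, with 1 line per list (red, top2-1 strains at 32 °C; blue, strains without top2-1 at 32 °C; orange, top1 log phase; green, log phase with intact TOP1; purple, S phase; grey, Rpb1) and genes as boxes below, with arrows for direction. At the NMA111, FRS1 and FKH2 sites all 4 top2-1 lists have a peak on the centre line and no green list does, while several orange and purple lists do; the MSA1 site is in neither sen1top2-1 nor sen1rrm3top2-1.

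In the other top2-1 strains, fewer of the member sites had a peak than of all top2-1 peaks. The sen1top2-1 list touched 119 of 280 members, 42.5%, against 60.3% of all top2-1 peaks, and the sen1rrm3top2-1 list touched 144, 51.4%, against 75.1%. Both lists held 75 members, 26.8% (95% interval 21.7 to 32.4%), against 52.2% of all top2-1 peaks. Another 113 members, 40.4%, were in 1 of the 2 lists, against 31.0% of all top2-1 peaks, and 92, 32.9%, were in neither, against 16.8%. Peaks in all 4 lists of the rule were in both in 73.7% of cases, and top2-1 peaks in none of the other 3 lists of the rule in 7.97%. The members lay between these sets. The rule asks for absence from 2 bTMP lists, while 2312 of the 4161 peaks compared were in all 4 lists. Its part in the lower shares of members, here and in the bTMP lists below, was not tested.

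Peak width moved with the share in the sen1rrm3top2-1 list. Members under 200 bp wide were in the sen1rrm3top2-1 list in 41.8% of cases, those of 200 to 300 bp in 53.1%, and wider ones in 68.3%. The same shares over all top2-1 peaks were 58.9, 76.4 and 86.3%, so the members were below them at each width. In the sen1top2-1 list the members' shares were 40.2, 44.9 and 43.3%, with no such order, against 48.8, 60.8 and 68.7% of all top2-1 peaks. The 75 members in both lists also had peaks in more lists without top2-1, a median of 10 of the 14, than the 92 in neither, with a median of 7. Over all top2-1 peaks these medians were 13 and 7, so the order is not particular to the members.

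Without top2-1, the members were found in a median of 8 of the 14 lists, against 11 for all top2-1 peaks and 12 for those in all 4 lists of the rule. At least 1 of the 14 lists held 99.6% of members, and the same 99.6% of all top2-1 peaks. Counting only the 8 closely spaced log-phase lists, 271 members, 96.8%, were in at least 1, against 98.3% of all top2-1 peaks. The single member in none of the 14, named here after its values were seen, lay in MYO4, the gene of a class V myosin. The single member in all 14, named likewise, lay in QCR2, the gene of a mitochondrial complex III subunit.

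**Figure D2:**
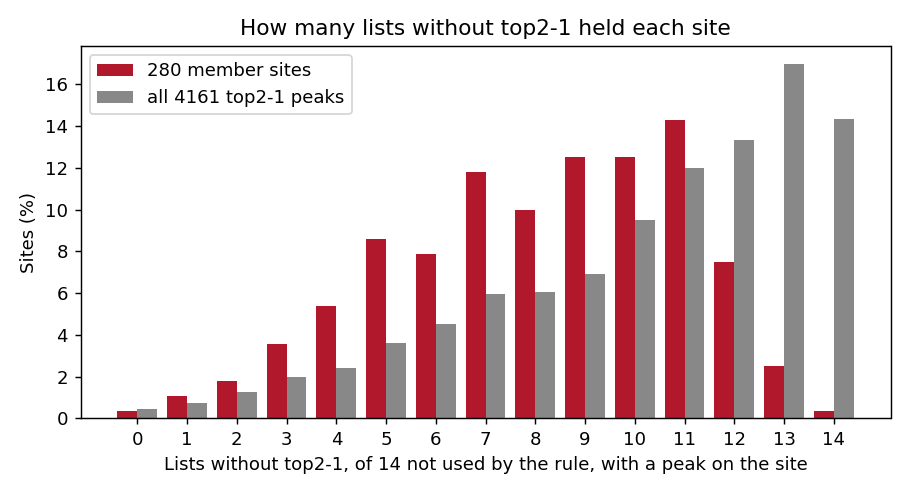
Share of sites (vertical axis, %) by the number of the 14 lists without top2-1 that hold them (horizontal axis), for the 280 member sites (red) and all 4161 top2-1 peaks (grey). The members spread around a median of 8 lists, and all top2-1 peaks pile up at 11 to 14.

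In log phase with intact TOP1, the sen1 list touched 50.0% of members, against 62.9% of all top2-1 peaks. The rrm3 list touched 56.4%, against 75.9%. Each of these shares was below that of all top2-1 peaks, as were the next. The sen1rrm3 list touched 37.9%, against 65.3%. The WT list touched 113 members, 40.4%, against 62.6%. No list with intact TOP1 held 54 members, 19.3%, against 9.37% of all top2-1 peaks. All 4 of them held 32, 11.4%, against 37.2%.

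Among the log-phase lists of top1 strains, the top1 list touched 70.0% of members, against 82.2% of all top2-1 peaks. The sen1top1 list touched 72.1%, against 83%. These were the highest shares among the 8 log-phase lists. The rrm3top1 list touched 48.2%, against 74.9%. The sen1rrm3top1 list touched 58.9%, against 74.5%. In 3 of 4 pairs that differ by top1, the list of the top1 strain thus held more of the members. The difference was 29.6 percentage points for top1 over WT, 22.1 for sen1top1 over sen1 and 21.1 for sen1rrm3top1 over sen1rrm3. The fourth pair ran the other way, at -8.21 points for rrm3top1 over rrm3. Over all top2-1 peaks the 4 differences were 19.6, 20.1, 9.13 and, for rrm3top1 over rrm3, -1.01 points.

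List length moved with these differences. The top1, sen1top1 and sen1rrm3top1 lists hold 4901, 4678 and 4312 peaks, against 3558, 3789 and 3490 in WT, sen1 and sen1rrm3, while rrm3top1 holds 3777 against 4254 in rrm3. In each pair the longer list held more members. The part of list length in the result was not tested. There were 45 members in at least 1 top1 list and in no list with intact TOP1, and 8 with the opposite pattern. These are 16.1 and 2.86% of members, against 7.69 and 1.73% of all top2-1 peaks.

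**Figure D3:**
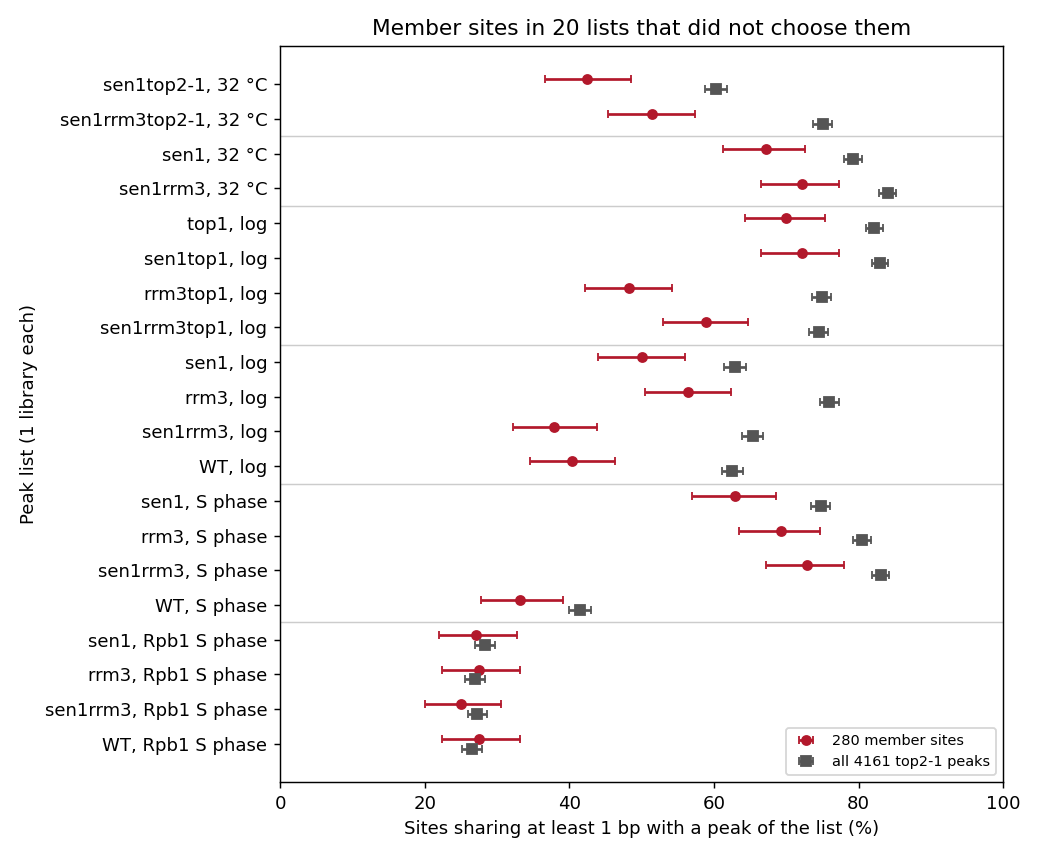
Share of sites (horizontal axis, %) touched by a peak of each of 20 lists not used by the rule (vertical axis), for the 280 member sites (red circles) and all 4161 top2-1 peaks (grey squares), with exact 95% binomial intervals as bars. In each of the 16 bTMP lists the members lie below all top2-1 peaks, and in the 4 Rpb1 lists both lie between 25.0 and 28.4%.

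The widely spaced lists touched between 33.2 and 72.9% of members. At 32 °C the sen1 list touched 67.1% of members and the sen1rrm3 list 72.1%, against 79.2 and 84% of all top2-1 peaks. In S phase the sen1, rrm3 and sen1rrm3 lists touched 62.9, 69.3 and 72.9%, against 74.8, 80.5 and 83.1% of all top2-1 peaks. The WT S-phase list touched 33.2%, against 41.5%. At 32 °C more members were touched in sen1 than in sen1top2-1 cells, and more in sen1rrm3 than in sen1rrm3top2-1 cells. Genotype and the spacing of the lists cannot be told apart in these 2 pairs, since the lists without top2-1 are widely spaced and those with it are not.

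Most member sites lay inside genes. The centre of 231 of 280 sites, 82.5% (77.5 to 86.8%), was inside a protein-coding gene, against 68.9% of all top2-1 peaks, 61.7% of top2-1 peaks in all 4 lists of the rule, and 72.9% of the base pairs of the nuclear genome. Between genes lay 47 sites, of which 29 were between genes in tandem, 12 between divergent genes, whose starts flank the stretch, and 6 between convergent genes. The divergent stretches held 4.29% of members, against 14.01% of the peaks in all 4 lists and 9.01% of the genome. Of the other 2 members, 1 lay in the SNR84 RNA gene and 1 beyond the last gene of a chromosome.

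The same rule with the strains exchanged gives a counterpart: WT peaks shared with rrm3 and absent from top2-1 and rrm3top2-1. It took 134 of 4052 WT peaks, 3.31%. The centre of 47 of these, 35.1% (27.04 to 43.8%), lay inside a protein-coding gene, against 59.2% of all WT peaks, and 81 lay between genes. The 2 sets thus differed in opposite directions from the lists they came from. When all 4 lists were cut to equal length by score, 84.1% of 227 members and 50.8% of 177 exchanged sites lay inside genes. The split also held within widths: below 200 bp, from 200 to 300 bp and above, 80.3, 82.7 and 86.7% of members lay inside genes. The exchanged sites stood at 41.7, 36.4 and 26.2% in the same classes. Top2-1 peaks in none of the other 3 lists, chosen with no second list, lay inside genes in 85.2% of cases. WT peaks in none of the other 3 lists did so in 51.3% of cases, nearer to all WT peaks than the exchanged sites were.

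**Figure D4:**
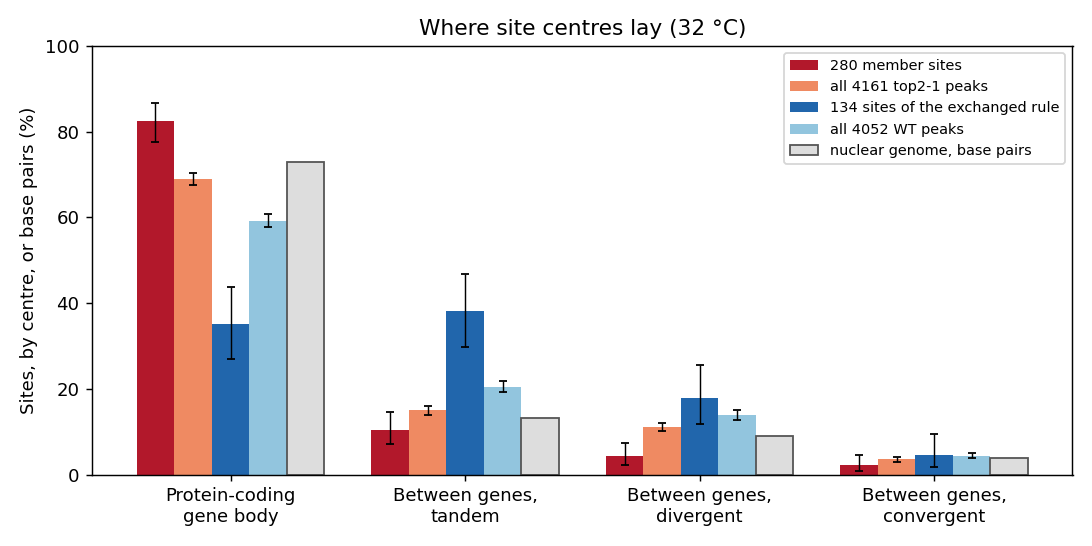
Share of site centres (vertical axis, %, with exact 95% binomial intervals) inside protein-coding genes and in 3 kinds of stretch between genes, for member sites (dark red), all top2-1 peaks (orange), the exchanged rule's sites (dark blue) and all WT peaks (light blue), beside the share of nuclear base pairs (grey). Members stand at 82.5% inside genes and the exchanged sites at 35.1%.

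Lists differ in this measure as a whole. The share of peaks inside genes was 68.9% in top2-1, 63.7% in rrm3top2-1, 59.6% in sen1top2-1 and 68.3% in sen1rrm3top2-1, against 59.2% in WT and 59.3% in rrm3 at 32 °C. In log phase it ran between 54.2% in WT and 74.2% in sen1rrm3top1. A site chosen for presence in the first lists and absence from WT and rrm3 is drawn from lists that are unlike in this respect.

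In 2 of the 4 log-phase pairs that differ by top1, the difference ran in opposite directions for members inside genes and between genes. The top1 list touched 75.3% of the 231 members inside genes, against 35.1% for WT. Of the 47 members between genes, the top1 list touched 44.7% and the WT list 66.0%. The direction between these lists was thus opposite in the classes. The sen1rrm3top1 list touched 63.2% of members inside genes and 36.2% of those between genes, against 32.9 and 61.7% for sen1rrm3. The other 2 pairs kept 1 direction in both classes. The sen1top1 list touched 74.0% inside genes and 61.7% between them, against 51.9 and 40.4% for sen1, and the rrm3top1 list 49.4 and 42.6%, against 53.2 and 72.3% for rrm3. Over all top2-1 peaks the top1 list touched 82.2% inside genes and 83.0% between them, against 53.2 and 83.1% for WT. The sen1rrm3top1 list touched 77.4 and 68.0% of these peaks, against 58.2 and 80.9% for sen1rrm3, also in opposite directions. For rrm3top1 the shares were 73.4 and 77.7%, against 72.3 and 84.0% for rrm3, again in opposite directions. For sen1top1 they were 82.1 and 84.5%, against 63.0 and 63.9% for sen1. The top1 list also has more of its own peaks inside genes, 70.1% against 54.2% in WT, and the part of that in the result was not tested.

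Along genes, fewer of the members than of the peaks common to the 4 lists lay near the start. For sites inside genes, the members' positions were close to those of all top2-1 peaks. From start to end of the gene, the 5 equal parts held 50, 42, 33, 52 and 54 of the 231 members, or 21.6, 18.2, 14.3, 22.5 and 23.4%. The first part held 21.6% of members (16.5 to 27.5%), against 25.5% of all top2-1 peaks, 31.4% of the peaks in all 4 lists and 18.7% of the peaks in none of the other 3. Members lay a median of 804 bp from the gene start, against 772.5 bp for all top2-1 peaks and 656 bp for the peaks in all 4 lists. Counting from any gene start, 72 of the 280 sites, 25.7% (20.7 to 31.3%), lay within 300 bp of one, against 35.4% of all top2-1 peaks, 43.0% of the peaks in all 4 lists and 52.2% of the exchanged sites. By this count the members were below all top2-1 peaks, and the peaks in none of the other 3 lists stood at 19.1%. Genes come from RefSeq assembly R64, whose protein-coding entries hold no untranslated regions, so a start here is the start of the reading frame and a length is the coding length with any introns.

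The genes that held members were longer than most genes, as is the gene around a base pair drawn from all gene bodies. The median gene holding a site was 1902 bp, counted once per site, against 1845 bp for all top2-1 peaks and 1200 bp over all 6002 protein-coding genes. For a base pair drawn from all gene bodies the median length was 1899 bp. Per kilobase of gene body, relative to the mean of the set, members stood at 1.03 in genes under 1 kb, 0.979 in genes of 1 to 2 kb, 1.14 in genes of 2 to 4 kb and 0.699 in genes of 4 kb and more. Peaks in all 4 lists stood at 1.36, 0.955, 0.737 and 1.31 in the same classes, and all top2-1 peaks at 1.18, 0.986, 0.899 and 1.06. Top2-1 peaks in none of the other 3 lists stood at 0.900, 0.962, 1.16 and 0.845. They too were highest at 2 to 4 kb and lowest at 4 kb and more, so that profile is not particular to the members. Genes of 4 kb and more held 23 of the 231 sites, 9.96% (6.42 to 14.6%), and make up 14.2% of gene base pairs. Several of the 26 such genes with a member over the body or the 300 bp before it are Ty retrotransposon frames. They are YDR261C-D, YDR365W-B, YGR027W-B, YGR109W-B, YHL009W-B, YJL113W and YLR227W-B. Ty frames have similar copies elsewhere, so the placement of reads there is uncertain.

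**Figure D5:**
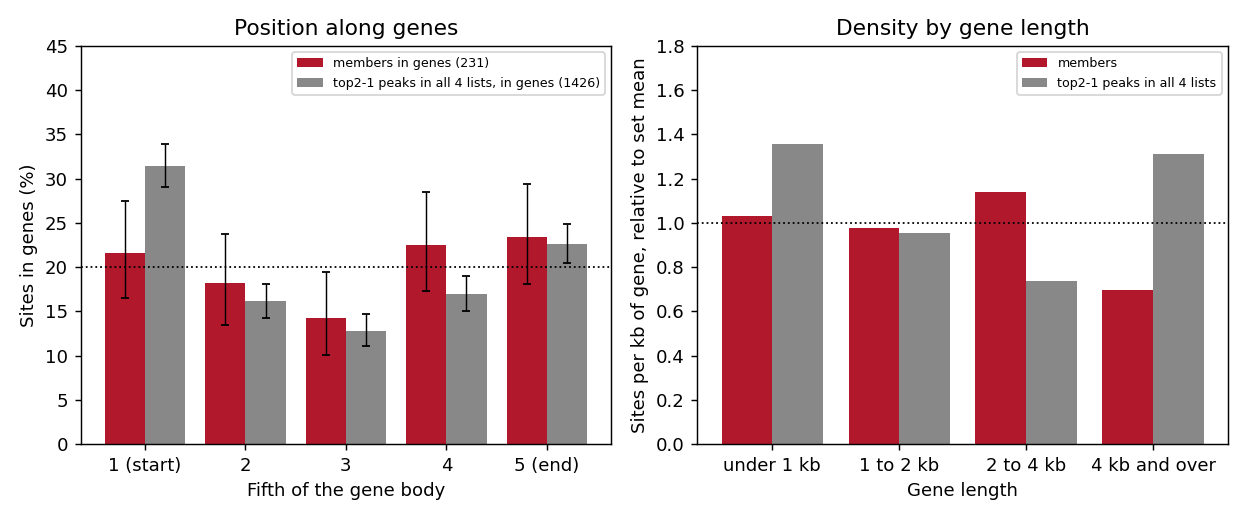
Left, share of sites inside genes (vertical axis, %, exact 95% binomial intervals) in each of 5 equal parts from gene start to end, with a dotted line at an even spread. Right, sites per kb of gene relative to the mean of each set, by gene length; members (red) lie at 1.14 in genes of 2 to 4 kb and 0.699 in genes of 4 kb and more, where peaks in all 4 lists (grey) lie at 0.737 and 1.31.

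The 6 longest genes with a member were FAB1, ACC1, POL2, CDC39, DCK1 and RIF1. In FAB1, the gene of a phosphatidylinositol phosphate kinase, the site chrVI:189922-190362 lay 82.5% of the way along, and in ACC1, the gene of acetyl-CoA carboxylase, chrXIV:655947-656165 lay 79.3% of the way along. CDC39 encodes the scaffold of the CCR4-NOT complex, and its site lay near the start, at 5.91%. The RIF1 site, in the gene of a telomere and replication-timing protein, lay near the end, at 91.97%. The DCK1 site had peaks in 2 of the 14 lists without top2-1 and the RIF1 site in 9.

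The genes with more than 1 member, MSA1, YME1, SEO1, SUM1, YRR1, SRP72 and NOP53, held 2 each, and 217 genes held 1. MSA1 encodes an activator of G1-phase transcription, and its site chrXV:449949-450112 was the highest-scoring member, ranked 17 among the 4161 top2-1 peaks. It was in neither sen1top2-1 nor sen1rrm3top2-1, and in 6 of the 14 lists without top2-1, of which sen1top1 was the only log-phase list. The second MSA1 site was ranked 3578 and was in 10 of the 14. YME1 encodes a mitochondrial protease, and its sites were in 2 and 7 of the 14. YRR1 encodes a transcription factor of drug resistance, and its sites were in 13 and 10. The 2 sites of a gene thus need not share their lists.

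The next 5 members by score show no single pattern either. Of these, 4 lay between tandem genes: SLM1 and SHQ1, ARF2 and RPL35B, SPR6 and SLX8, and YNCE0018W and UBP9. The other lay 59 bp inside VPS27, the gene of an endosomal sorting protein. The SLM1 to SHQ1 site, chrIX:169603-169783, was ranked 64 and was in neither of the other top2-1 lists. The site between the tRNA gene YNCE0018W and UBP9, chrV:355340-355547, was in both, and also in all 4 log-phase lists with intact TOP1.

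Rpb1 peaks touched similar shares of the members and of all top2-1 peaks. These lists come from S-phase cells without top2-1 at 23 °C, so polymerase was not mapped in the cells that gave the sites. The sen1, rrm3 and sen1rrm3 Rpb1 lists touched 27.1, 27.5 and 25.0% of members and the WT list 27.5%. All top2-1 peaks were touched in 28.4, 26.9, 27.3 and 26.6% of cases in the same order. No Rpb1 list touched 185 members, 66.1%, against 65.8% of all top2-1 peaks. All 4 touched 55 members, 19.6%, against 21.0% of all top2-1 peaks. The exchanged sites were touched in 14.2 to 21.6% of cases.

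Of the 224 genes with a member inside, 55, or 24.6%, had at least 50% of the body under WT Rpb1 peaks, against 21.9% of all protein-coding genes. In the sen1, rrm3 and sen1rrm3 lists the shares were 23.2, 24.1 and 21.9%, against 24, 21.6 and 22.1% of all genes. The genes named above cover both ends. FRS1 had 99.2% of its body under WT Rpb1 peaks and ACC1 100%, while FKH2, POL2, FAB1, MSA1 and RIF1 had none. NMA111 had 17.7, 97.3 and 6.21% in sen1, rrm3 and sen1rrm3, against 72.5% in WT. SRP72, the gene of a signal recognition particle subunit, had 30.3, 85.7 and 43.2%, against 85.2% in WT. SUM1 differed in the other direction in sen1 and sen1rrm3, with 38.2, 0 and 26.2%, against 8.87% in WT. Over the 224 genes the mean cover was 23.7, 24.3 and 23.0%, against 25.0% in WT, so these genes do not stand for the set.

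Few genes of each family held a member. A member touched the body or the 300 bp before it in 266 of 6002 protein-coding genes, 4.43%, and any top2-1 peak did so in 51.4%. None of 22 genes for topoisomerases, condensin, cohesin, DNA-bending proteins and related helicases held a member, although 15 held some top2-1 peak. The same was true of 24 chaperone genes, of which 21 held a top2-1 peak, and of 9 flocculin genes, of which 8 did. In lists of this size 1 member or none is near the background share.

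Among glycolysis genes, ADH1 and PFK1 held a member, 2 of 19. The ADH1 site, in the gene of the main fermentative alcohol dehydrogenase, was in no log-phase list at all and lay wholly under Rpb1 peaks in all 4 strains. The PFK1 site, in the gene of a phosphofructokinase subunit, was in all 4 top1 log-phase lists and likewise under Rpb1 peaks in all 4 strains. The hexose transporter gene HXT11 was 1 of 19, with no Rpb1 peak in any strain. The histone gene HTB2 was 1 of 10, with its site 14 bp inside the gene. Of 20 transcription elongation genes, DST1, which encodes the factor TFIIS, held a member.

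Of 138 ribosomal protein genes, RPL24B, RPL43A and RPS6B held a member, 2.17%, against 35.5% with any top2-1 peak. Among genes with any top2-1 peak, 6.12% of ribosomal protein genes held a member, against 8.62% of all protein-coding genes. The 3 sites were low in the ranking of the top2-1 list, at 3917, 3845 and 4153 of 4161, and all lay wholly under Rpb1 peaks in every strain. Of 53 ribosome biogenesis genes, NOP53 and NOP9 held members. HTB2, HXT11 and the 3 ribosomal protein genes have near-identical copies elsewhere, so the placement of reads there is uncertain.

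Few RNA genes held a member, and fewer of them than of protein-coding genes had any top2-1 peak. Of 275 tRNA genes, 3 had a member over the gene or the 300 bp before it, 1.09%, against 17.8% with any top2-1 peak. They were YNCK0008W, YNCL0050C and YNCN0009W. Of 76 small nucleolar RNA genes, SNR84 and SNR161 had one, 2.63%, against 36.8%. Among genes with any top2-1 peak, 6.12% of tRNA genes and 7.14% of small nucleolar RNA genes held a member. The share for protein-coding genes was 8.62%, so these shares are near the background. The SNR161 site, chrII:306886-307302, also touched TLC1, the telomerase RNA gene, or the stretch before it, and was in both other top2-1 lists and in 12 of the 14 lists without top2-1.

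Members lay on all 16 nuclear chromosomes, with 1.21 per 100 kb on chromosome XII and 3.44 per 100 kb on chromosome II at the extremes. All top2-1 peaks stood at 32.0 and 35.7 per 100 kb on these 2 chromosomes. Within 20 kb of a centromere lay 24 members, 8.57% (5.57 to 12.5%), against 6.08% of all top2-1 peaks and 5.31% of the genome. The outer 20 kb of chromosomes held 13, 4.64%, against 4.97% of all top2-1 peaks. Sites were scattered, with a median of 11927 bp between nearest members, and 18 of 280 lay within 1000 bp of another.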

How the data were processed

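Each pulled-down library has 1 peak list, deposited by the authors as intervals with a score per peak. No source used here gives the build, the peak caller with its settings, or what the score means, so the score was used only to rank peaks within a list. Bowtie2, Picard, SAMtools and deepTools are named per the submitters' processing notes, without versions. The 24 input libraries were not analysed here, and mitochondrial peaks were left out. Read depth is unknown.

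Overlaps, positions and exact binomial intervals were computed with Python 3.11.15, pandas 2.3.3, NumPy 2.4.6 and SciPy 1.17.1, and the overlap functions were tested on simulated intervals. Genes came from RefSeq assembly R64, with strand read from systematic names. As a check of the match between lists and annotation, WT Rpb1 peaks covered 99.3% of ribosomal protein gene base pairs in place, 79.9% when shifted by -400 bp and 85.1% when shifted by 400 bp.

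The members, gene lists and comparisons were chosen with earlier results of these data known. Named genes were the members in all 4 top2-1 lists and no log-phase list with intact TOP1, the 6 highest scores, the 6 longest genes, up to 6 genes with most members, and members of gene lists (up to 4 a list). Alternatives changed the overlap, distance, list length, score, interval and lists of the rule.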

Additional observations from a re-analysis of the deposited data

Results flagged for a closer look

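In the rrm3 strain and its pairs, 3 differences between log-phase lists in the share of member sites with a peak ran opposite to the other 3 of their kind. None of these differences was tested, since each list is 1 library. The share was 16.1 percentage points higher in rrm3 than in WT, while it was lower with rrm3 in the other 3 pairs, at -12.1 points for sen1rrm3 over sen1, -21.8 for rrm3top1 over top1 and -13.2 for sen1rrm3top1 over sen1top1. It stood at -18.6 points for sen1rrm3 over rrm3, while the other 3 pairs that differ by sen1 stood at 9.64 for sen1 over WT, 2.14 for sen1top1 over top1 and 10.7 for sen1rrm3top1 over rrm3top1. It stood at -8.21 points for rrm3top1 over rrm3, while the other 3 pairs that differ by top1 were positive. The rrm3 list, with 4254 peaks, is in all 3, and over all top2-1 peaks the same differences were 13.4, -10.6 and -1.01 points. Over those peaks the other pairs that differ by rrm3 stood at 2.40, -7.23 and -8.53 points, in the order above. The other pairs that differ by sen1 stood at 0.385, 0.841 and -0.457 points. The rrm3 and sen1 differences were thus not opposite to all others of their kind over all top2-1 peaks.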

How the results depend on the processing

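Across 10 alternatives each, the share of members inside genes ran from 78.3 to 85.0%, the median gene length from 1872 to 1935 bp and the share touched by WT Rpb1 from 23.3 to 29.1%. The number of members was 180 with no WT or rrm3 peak within 500 bp, 119 among the 50% of top2-1 peaks with the highest scores, and 719, 506 or 655 without the rrm3top2-1, rrm3 or WT list in the rule. Without these lists in turn, 15.3, 34.0 or 32.5% of sites were in both other top2-1 lists and 28.2, 48.6 or 49.9% in the WT log-phase list. The exchanged rule, added after seeing the data, put 50.8% of its sites inside genes with lists of equal length, 23.5% among the 50% with the highest scores, 47.7% without rrm3 and 52.7% without top2-1. Fewer lists loosen the rule by construction; otherwise the cause was not tested. Counting only the 4 log-phase lists with TOP1, also added later, 80.7% of members were in at least 1.

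No paired analysis was possible because each group has 1 library, so the groups share fewer than 2 replicate numbers and no replicate block can be fitted; differences between matched strains are given as values with no test. Depth cannot be judged, and a missing peak does not show that psoralen binding was absent.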
